A study of Mus musculus with 9 samples.

Results

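The Trim43 family of the mouse was described in RNA of morulae, the compacted embryos that precede the blastocyst. Its members were chosen by name as Trim43a, Trim43b and Trim43c, which were 3 of the 53819 gene rows, and all 3 passed the filter on low counts with 12488 rows. They were chosen because their counts differed between libraries with different column headers in the deposited files, so that difference is described here with no test. The embryos were made by in vitro fertilization with the Nakagata protocol and CARD media, and the labels give C57BL/6J as the strain. Total RNA was sequenced in 9 libraries, 3 from control sires, 3 from sires given 6% ethanol and 3 from sires given 10% ethanol. The dams, the ages, the length of the treatment, and the number of embryos or sires behind a library are not stated in the labels.

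TRIM proteins carry a RING finger, a B-box and a coiled coil, and many of them act as E3 ubiquitin ligases, which attach ubiquitin to other proteins. The mouse Trim43 genes are known for transcription in embryos before implantation and for low levels in adult tissues. Human TRIM43 is a target of the cleavage-stage transcription factor DUX4, and in human cells it marks the centrosome protein pericentrin for degradation.

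The copies are close to identical, which matters for how reads are assigned to them. In the GENCODE M21 annotation of GRCm38 all 3 lie on chromosome 9, with Trim43a and Trim43c on the plus strand and Trim43b on the minus strand, and each principal transcript has 7 exons. Their coding sequences are 1338 bases long in Trim43a and Trim43b and 1341 bases in Trim43c. Over aligned positions, gaps included, Trim43a and Trim43b were 98.0 percent identical, Trim43b and Trim43c 97.6 percent, and Trim43a and Trim43c 96.6 percent. The first 120 coding bases, which encode the start of the protein on the side of the RING finger, show how rare the differences are, with capitals at the 4 positions where the copies are not all alike.
Trim43a: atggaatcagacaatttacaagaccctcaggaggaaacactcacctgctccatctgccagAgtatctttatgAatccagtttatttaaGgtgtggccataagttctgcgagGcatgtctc
Trim43b: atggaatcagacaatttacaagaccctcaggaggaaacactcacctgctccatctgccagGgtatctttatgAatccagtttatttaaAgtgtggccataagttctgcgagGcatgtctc
Trim43c: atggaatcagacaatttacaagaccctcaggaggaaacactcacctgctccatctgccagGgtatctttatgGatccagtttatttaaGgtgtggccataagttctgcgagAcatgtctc

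The longest coding stretch that all 3 copies share without a difference is 118 bases long and lies near the end of the coding sequence, at bases 1204 to 1321 of that of Trim43a. It is shown because a read that falls inside it cannot be placed on 1 copy.
Shared: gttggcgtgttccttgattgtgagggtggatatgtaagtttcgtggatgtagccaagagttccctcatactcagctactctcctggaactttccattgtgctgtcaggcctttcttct

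Exact windows of 75 bases were found in at least 1 of the other copies for 29.8 percent of the positions of the Trim43a transcript, 34.4 percent of Trim43b and 27.1 percent of Trim43c. For windows of 150 bases these shares were 3.17, 5.96 and 3.69 percent. The labels and file headers do not say how the authors' counting treated reads that match several genes. The values of each copy are therefore uncertain to the extent that reads were split, dropped or counted at several copies. The sum of the 3 copies is given beside them.

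RefSeq's promoter table (GRCm38.p6) held the promoter of 1 of the 3 members, that of Trim43a, at chr9:88580641-88580940 on the plus strand, from 250 bases before the transcription start to 50 after it. It is shown because the levels of the copies were correlated across libraries, with the letters of motif matches in capitals.
Trim43a: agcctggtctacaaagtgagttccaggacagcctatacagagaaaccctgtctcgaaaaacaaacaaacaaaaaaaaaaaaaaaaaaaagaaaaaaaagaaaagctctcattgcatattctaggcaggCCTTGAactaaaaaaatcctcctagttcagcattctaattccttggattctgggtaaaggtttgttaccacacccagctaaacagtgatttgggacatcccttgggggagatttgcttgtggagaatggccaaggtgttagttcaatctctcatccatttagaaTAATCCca

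Searched on both strands, TCAAGG, the core of the motif of the nuclear receptor Nr5a2, had 1 match on the minus strand, and 14.4 percent of all 32851 promoters of this length hold it. GGATTA, the core bound by homeobox proteins of the Obox and Otx kind, had 1 match on the minus strand, and 7.06 percent of promoters hold it. TATAAA, the TATA box, had 0 matches in this window, and 13.6 percent of promoters hold it. The paired homeobox motif of the Dux type also had 0 matches, and 0.207 percent of promoters hold it. The matches do not overlap, and they are descriptions of letters and not of bound sites.

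Each deposited file held raw counts of 1 library, with 6263465 to 27619281 counts in all. The count column had a short header in 5 files and a long header that names the aligner RNA STAR in 4 files. The 5 short-header libraries were controls 1 and 3, 6% ethanol 2 and 3, and 10% ethanol 3, with 6263465 to 11026334 counts. The 4 long-header libraries were control 2, 6% ethanol 1, and 10% ethanol 1 and 2, with 19574710 to 27619281 counts, so that depth and header form cannot be told apart. Of 12 markers of the morula, 11 had counts in all 9 libraries, and Sox2 was at 0 in 2. Levels are given in CPM (counts scaled to a common library size with TMM factors). The summed level of the 12 markers was 2365 to 5596 CPM in short-header libraries and 3101 to 4059 CPM in long-header ones. Dppa3, also listed below as an oocyte transcript, had the highest mean of the 12, at 1948 CPM. In mean log2(CPM + 0.5), short-header minus long-header, only Dppa3 (0.64) and Klf4 (0.16) lay above 0. The median of the 12 was -1.0029, against -0.17 over all tested genes, and every marker overlapped between header forms. The sum therefore does not show that the markers were alike in both forms. The summed levels of 9 cumulus and granulosa markers were at most 5.29 CPM and those of 8 sperm markers at most 3.51 CPM. Those of 6 blood markers were at most 0.253 CPM and those of 6 fibroblast markers at most 21.1 CPM. Fshr, Prm2, Ptprc and Col1a2 were at 0 in every library, but other listed markers were not. Postn, of the fibroblast list, reached 20.6 CPM in 10% ethanol 2 and was at 0 in 1 library. Akap4, of the sperm list, reached 3.51 CPM in 6% ethanol 3. Star, of the cumulus list, had 0.768 to 5.29 CPM in short-header libraries and at most 0.521 CPM in long-header ones. It passed the filter on low counts only through short-header libraries. Nothing in the labels says that libraries of a group came from separate sires or cultures, so the p-values speak only of the scatter among the sequenced libraries, part of which may be technical.

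Trim43a transcripts were among the most abundant in these embryos, and Trim43b and Trim43c ranked lower. The 3 genes together held 0.135 to 0.925 percent of all counts of a library. Among all gene rows ranked by CPM, Trim43a stood between rank 6 and rank 82 in a library, Trim43b between 24 and 723, and Trim43c between 214 and 6242. The counts behind these values ran from 383 for Trim43c in control 2 to 54776 for Trim43a in 10% ethanol 2. In such bulk RNA, fewer cells and less RNA per cell cannot be told apart.

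Trim43a was the main copy. It had 2184 and 3818 CPM in short-header controls 1 and 3, 4235 and 4937 CPM in short-header 6% ethanol 2 and 3, and 5447 CPM in short-header 10% ethanol 3. In the long-header libraries it had 909 CPM in control 2, 1743 CPM in 6% ethanol 1, and 2177 and 1995 CPM in 10% ethanol 1 and 2. All short-header values lay above all long-header values, but control 1 exceeded 10% ethanol 1 by only 1.003-fold. The mean was 4124 ± 1253 CPM in short-header libraries (SD, n = 5) and 1706 ± 560.3 CPM in long-header ones (SD, n = 4).

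Trim43b followed the same order of header forms at a lower level. Short-header controls 1 and 3 had 1126 and 899.9 CPM, short-header 6% ethanol 2 and 3 had 1548 and 2269 CPM, and short-header 10% ethanol 3 had 2671 CPM. The long-header libraries had 220.1 CPM in control 2, 464.9 CPM in 6% ethanol 1, and 786 and 562 CPM in 10% ethanol 1 and 2. The forms did not overlap, and the lowest short-header value was 1.15-fold the highest long-header value. The means were 1703 ± 752 CPM in short-header libraries and 508 ± 234 CPM in long-header libraries.

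Trim43c was the rarest copy and the one that varied most, with a 50.5-fold range over the 9 libraries, against 12.1-fold for Trim43b and 5.99-fold for Trim43a. It had 83.7 and 199 CPM in short-header controls 1 and 3, 697 and 502 CPM in short-header 6% ethanol 2 and 3, and 582 CPM in short-header 10% ethanol 3. Long-header control 2 had 13.8 CPM, 6% ethanol 1 had 26.7 CPM, and 10% ethanol 1 and 2 had 79.6 and 78.2 CPM. The forms were apart by 1.05-fold at their nearest, between control 1 and 10% ethanol 1. The means were 413 ± 260.5 CPM in short-header libraries and 49.6 ± 34.3 CPM in long-header libraries.

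**Figure D1:**
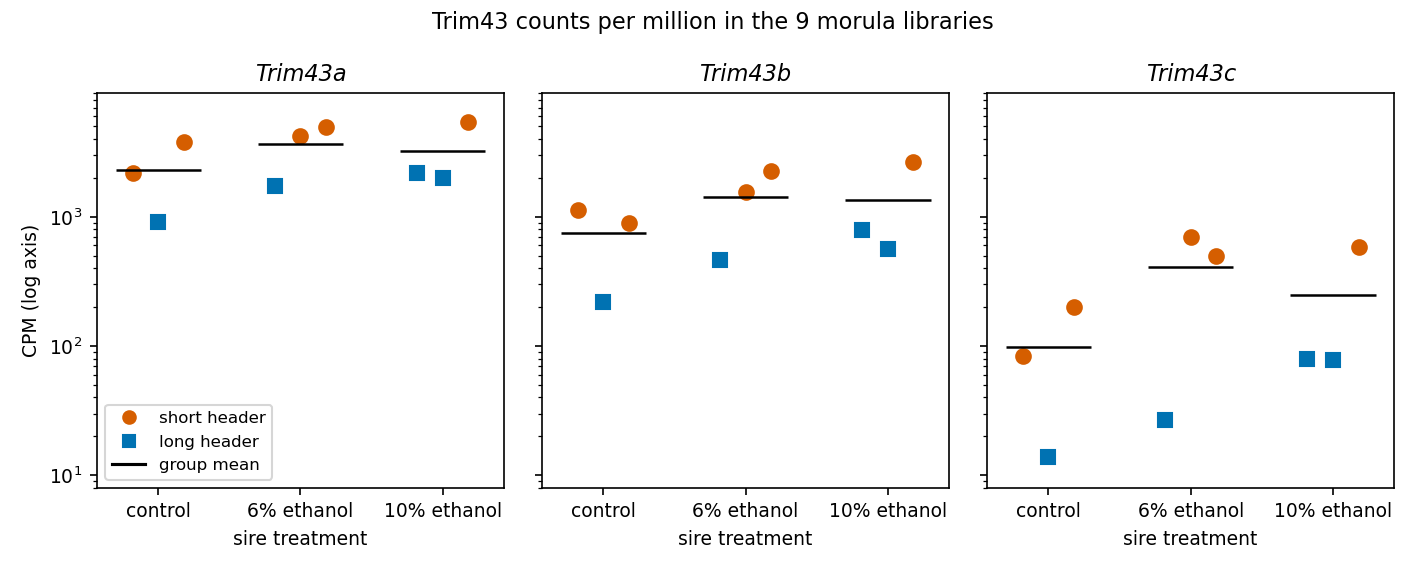
CPM of Trim43a, Trim43b and Trim43c on a log axis in each of the 9 libraries, by sire treatment, with circles for short-header and squares for long-header libraries and a black line at the arithmetic mean of each sire group (n = 3). Within each sire group the squares lie below the circles, and control 2 is the lowest library for each gene.

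On the scale of mean log2(CPM + 0.5), short-header libraries exceeded long-header ones by 1.28 for Trim43a, 1.77 for Trim43b and 3.02 for Trim43c, or 2.43-, 3.40- and 8.12-fold. The median difference over all tested genes was -0.17. Short-header libraries lay above long-header ones with no overlap for 4.80 percent of tested genes, and below them for 4.28 percent, and 5457 of 12488 genes had a difference above 0. The absence of overlap for all 3 members held on TMM, RLE and unscaled library totals. After random thinning of all libraries to the smallest total, the difference was 1.29 for Trim43a and 1.76 for Trim43b. For Trim43c it lay between 2.91 and 3.05 over this thinning, RLE scaling, unscaled totals and other pseudocounts. These are values of the contrast by which the members were chosen, and nothing is read from their size.

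The sum of the 3 copies does not depend on how reads were split among them. It does depend on reads that were dropped or counted at several copies. It was 3394 and 4917 CPM in short-header controls 1 and 3, 6479 and 7708 CPM in short-header 6% ethanol 2 and 3, and 8700.5 CPM in short-header 10% ethanol 3. The long-header libraries had 1143 CPM in control 2, 2235 CPM in 6% ethanol 1, and 3042 and 2635 CPM in 10% ethanol 1 and 2. The sum thus also separated the header forms, by 1.12-fold at the nearest.

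Within the family, the balance of the copies changed between libraries. Trim43a took 62.6 to 77.7 percent of the family's counts in short-header libraries and 71.6 to 79.5 percent in long-header ones. Trim43b took 18.3 to 33.2 percent in short-header libraries and 19.3 to 25.8 percent in long-header ones. Trim43c took 2.47 to 10.8 percent in short-header libraries and 1.197 to 2.97 percent in long-header ones. The shares of all 3 overlapped between header forms. The share of Trim43c was largest in 6% ethanol 2, at 10.8 percent with a 95% Wilson interval of 10.4 to 11.1 percent. That library had the most tested genes at 0, with 13.5 percent. The share was smallest in 6% ethanol 1, at 1.197 percent with an interval of 1.11 to 1.29 percent. Such intervals cover counting error only, and the 2 libraries come from the same sire group.

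**Figure D2:**
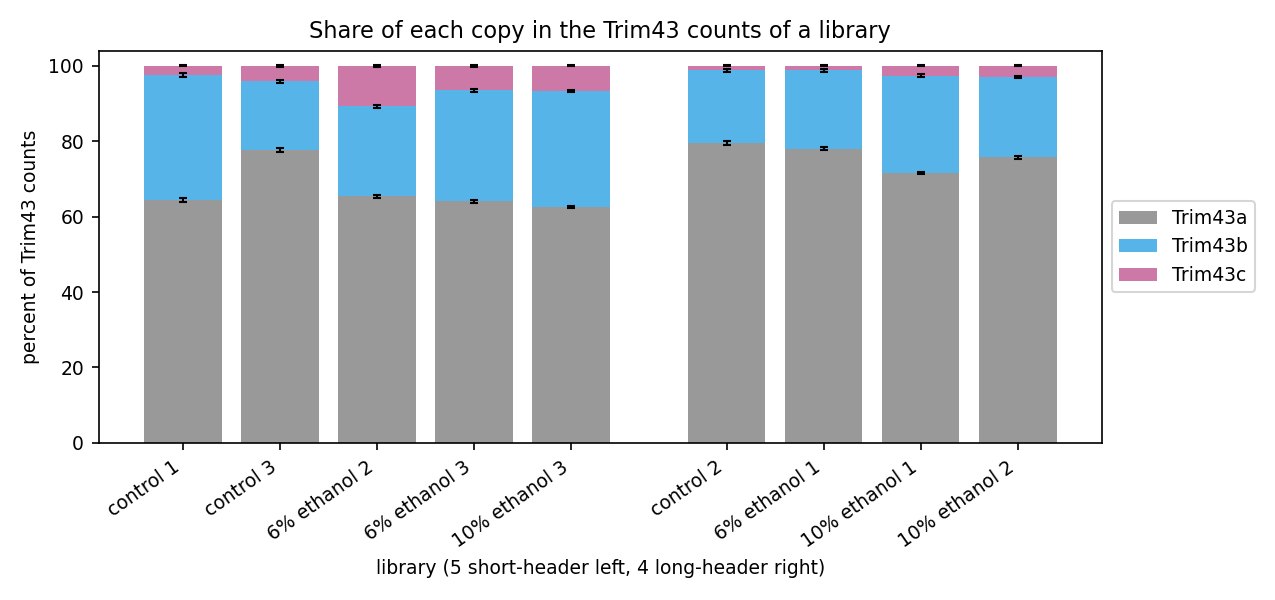
Percent of the Trim43 counts of each library assigned to each copy, with 95% Wilson intervals as error bars at the top of each segment and short-header libraries on the left. Trim43a makes up the largest part of every bar, and Trim43c the smallest, with its tallest segment of 10.8 percent in 6% ethanol 2.

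The levels of the copies were correlated. Across the 9 libraries the Pearson correlation of log2 CPM was 0.967 between Trim43a and Trim43c, 0.946 between Trim43a and Trim43b, and 0.935 between Trim43b and Trim43c. After the mean of each header form was subtracted, the values were 0.906, 0.846 and 0.812. Shared reads, header form and depth are common to these points, so the values are descriptions.

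With the sire as the question, the morulae of sires given 6% ethanol had higher mean counts of each Trim43 gene than controls, and none passed the test. Trim43a averaged 3638 ± 1678 CPM with 6% ethanol and 2304 ± 1458 CPM in controls (SD, n = 3 each). Trim43b averaged 1427 ± 908 CPM with 6% ethanol and 749 ± 471 CPM in controls, and Trim43c averaged 409 ± 345 CPM with 6% ethanol and 98.8 ± 93.5 CPM in controls. For each gene the libraries of the groups overlapped, since the long-header library 6% ethanol 1 lay below both short-header controls. By edgeR's quasi-likelihood test with Benjamini-Hochberg adjustment over all tested genes, the log2 fold change was 0.66 ± 0.59 for Trim43a (SE, adjusted p = 0.869), 0.93 ± 0.74 for Trim43b (0.856) and 2.05 ± 1.15 for Trim43c (0.822). This comparison called 0 of 12488 genes, or 0 percent, with 779 at an unadjusted p under 0.05, and the median log2 fold change of all tested genes was -0.01. The smallest adjusted p over all alternatives tried was 0.423 for Trim43a, 0.384 for Trim43b and 0.111 for Trim43c.

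With 10% ethanol the means were also above those of controls, which are the control libraries of the first comparison, and again no member passed. Trim43a averaged 3206 ± 1943 CPM with 10% ethanol and 2304 ± 1458 CPM in controls. Trim43b averaged 1340 ± 1159 CPM with 10% ethanol and 749 ± 471 CPM in controls, and Trim43c averaged 247 ± 291 CPM with 10% ethanol and 98.8 ± 93.5 CPM in controls. The groups overlapped for each gene. The log2 fold changes by edgeR were 0.48 ± 0.59 for Trim43a, 0.84 ± 0.74 for Trim43b and 1.32 ± 1.12 for Trim43c, each with an adjusted p of 0.9999. Without 10% ethanol 3, the only short-header library of its group, they turned to -0.12, -0.13 and -0.30. The comparison called 0 percent of tested genes, with 267 at an unadjusted p under 0.05, and the smallest adjusted p over the alternatives was 0.241 for Trim43a, 0.256 for Trim43b and 0.324 for Trim43c.

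The sire groups held unequal numbers of the header forms, with 1 long-header library of 3 in the controls and with 6% ethanol and 2 of 3 with 10% ethanol. Within each header form, every ethanol library lay above every control for all 3 genes on TMM-scaled sizes. The short-header libraries differed in scaling and in genes detected. TMM factors were 0.839 and 0.835 in 6% ethanol 2 and 3, 1.063 in 10% ethanol 3, and 1.115 and 1.005 in controls 1 and 3. In the same order, 13.5, 8.42, 4.45, 3.76 and 7.30 percent of tested genes were at 0. For Trim43a the lowest short-header ethanol library had 4235 CPM and the highest short-header control 3818 CPM, but on unscaled library totals these were 3554 and 3836 CPM and the order was lost. For Trim43b they were 1548 CPM with ethanol and 1126 CPM in controls, and for Trim43c 502 CPM with ethanol and 199 CPM in controls. On unscaled library totals the order held for both, but narrowly for Trim43b. The values were then 1299 and 1255 CPM for Trim43b, and 419 and 199.9 CPM for Trim43c. Among the long-header libraries the only control had 909 CPM of Trim43a, 220.1 CPM of Trim43b and 13.8 CPM of Trim43c, below all 3 ethanol libraries of that form for each gene. Of all tested genes, 2.04 percent had every ethanol library above every control within both forms, and 3.04 percent had every ethanol library below. The 3 members may share reads and their levels were correlated, so they are not 3 separate observations.

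What the header form stands for was not tested. With header form as a term in the fit the standard errors of the members were smaller, but the members were chosen by their difference between header forms, so the term removes variance they were chosen for. For 10% ethanol against control the log2 fold change was then 1.01 ± 0.35 for Trim43a, 1.4996 ± 0.36 for Trim43b and 2.45 ± 0.52 for Trim43c, or 2.01-, 2.83- and 5.48-fold. None passed the adjustment by edgeR (adjusted p = 0.9996 for each), and the fit called 0 percent of genes, with 354 at an unadjusted p under 0.05. With each library left out in turn the value stayed between 0.86 and 1.24 for Trim43a, 1.37 and 1.60 for Trim43b, and 2.23 and 2.84 for Trim43c. For 6% ethanol against control the fit gave 0.72 ± 0.33 for Trim43a, 0.97 ± 0.34 for Trim43b and 1.77 ± 0.49 for Trim43c, each with an adjusted p of 0.628 by edgeR, again with 0 percent of genes called and 989 at an unadjusted p under 0.05. The median of all tested genes in these fits was -0.08 for 10% and -0.09 for 6% ethanol.

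**Figure D3:**
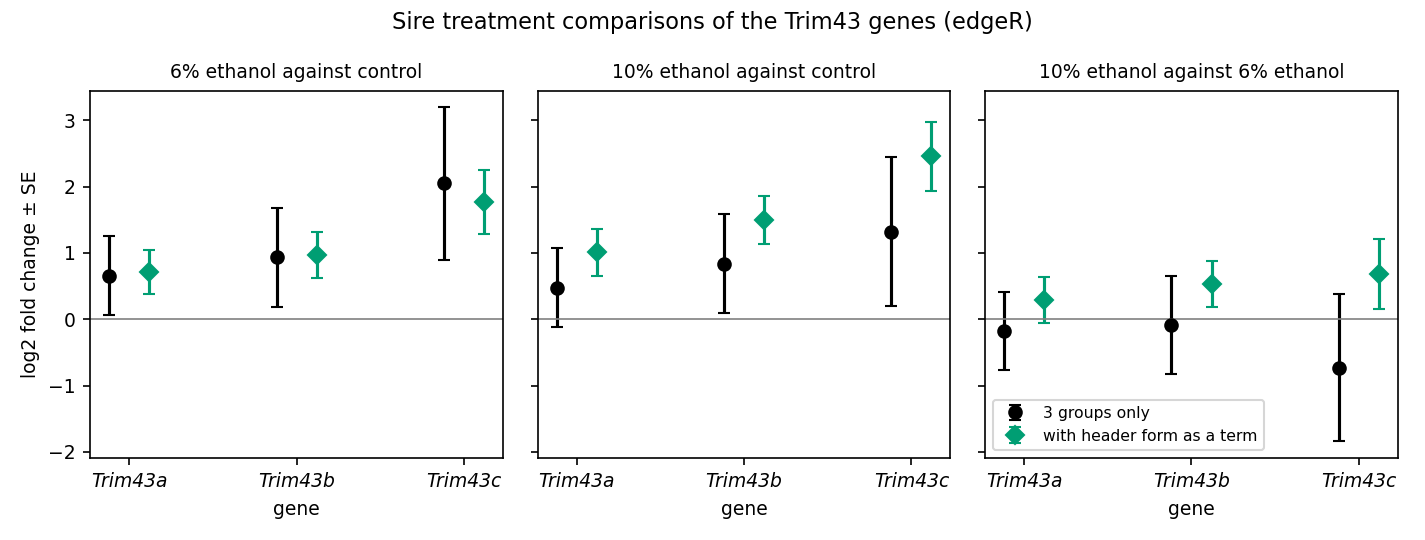
Log2 fold change with its standard error by edgeR for each Trim43 gene in the 3 sire comparisons, from the fit with the 3 groups (circles) and from the fit with header form added as a term (diamonds). Against control every value lies above 0, and 10% against 6% ethanol lies below 0 without the term and above 0 with it.

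Between the doses no difference was detected and the direction depended on the fit. The log2 fold change of 10% against 6% ethanol was -0.18 ± 0.59 for Trim43a, -0.09 ± 0.74 for Trim43b and -0.73 ± 1.11 for Trim43c (edgeR, adjusted p = 0.951, 0.983 and 0.893). With header form as a term it was 0.29 ± 0.34, 0.53 ± 0.35 and 0.69 ± 0.53 (edgeR, adjusted p = 0.955 for each). Each fit called 0 percent of genes, with 665 at an unadjusted p under 0.05 in the first and 491 in the second. Among long-header libraries Trim43c stood at 79.6 and 78.2 CPM with 10% ethanol and at 26.7 CPM with 6% ethanol. Among short-header libraries it stood at 582 CPM with 10% ethanol and at 697 and 502 CPM with 6% ethanol.

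Of the wider TRIM family, 65 other genes were listed and 28 of them were tested. Levels between genes were compared per kilobase of exon, from GENCODE M21 lengths. The mean over the libraries was 1537 CPM per kilobase for Trim43a, 518 for Trim43b and 126 for Trim43c, which put them at the head of 68 TRIM genes. Next came Trim13, an E3 ligase of the endoplasmic reticulum membrane, with 116, and Trim28, the corepressor that silences retroelements and guards imprints, with 90.4 CPM per kilobase. Trim43a lay above Trim43b and Trim43b above Trim43c in every library. The ranges of Trim43c, Trim13 and Trim28 overlapped, since Trim43c ran from 6.93 to 350.2 CPM per kilobase.

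**Figure D4:**
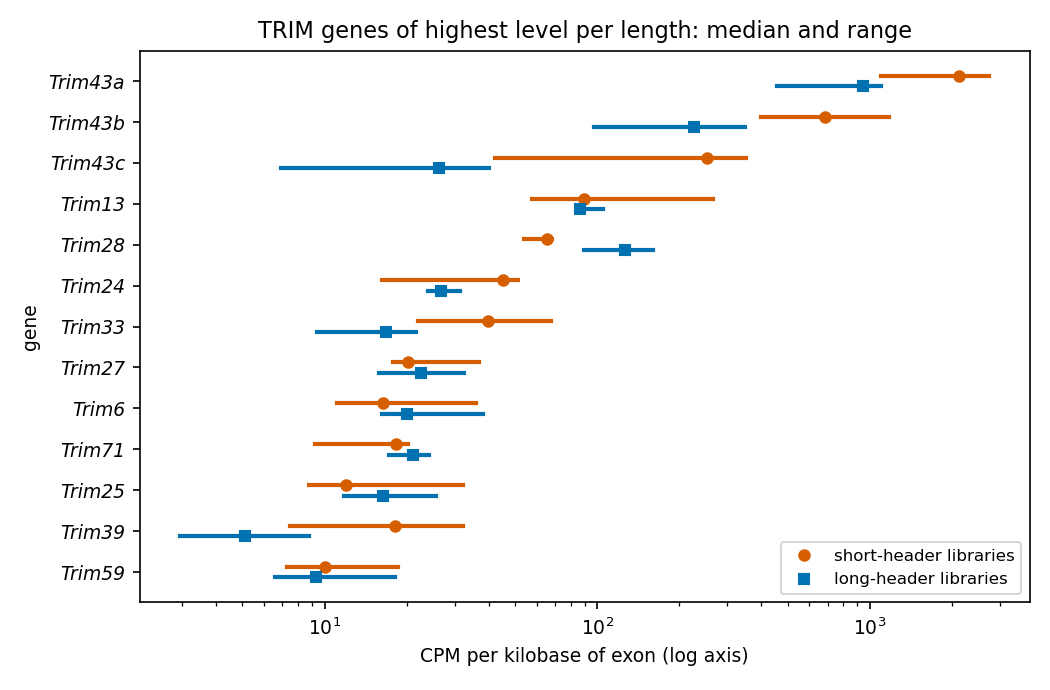
Median (symbol) and range (line) of CPM per kilobase of exon on a log axis for the 13 TRIM genes of highest mean level, in short-header (circles) and long-header (squares) libraries. Trim43a, Trim43b and Trim43c head the list, and the long-header median of Trim43c lies below those of Trim13 and Trim28.

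The header-form difference of the other TRIM genes had a median of -0.27, 12 of 28 lay above 0, and 2 lay above and 1 below without overlap, against 5457 of 12488 above 0 and 4.80 percent above and 4.28 percent below without overlap over all tested genes. These counts are near the background, and the genes named next follow the rule of level and size. Trim28 had 224 to 285 CPM in short-header libraries and 371 to 668 CPM in long-header ones. Trim33, a corepressor of TGF-beta signalling, had 215.04 to 665 CPM in short-header libraries and 91.8 to 213 CPM in long-header ones. The other gene above without overlap was Trim5, a restriction factor in primates, at 0.877 to 3.81 CPM in short-header libraries and at most 0.765 CPM in long-header ones. Trim24, a reader of histone marks, had 139 to 438 CPM in short-header and 204 to 268 CPM in long-header libraries. Trim13 had 95.5 to 438 CPM in short-header and 139 to 174 CPM in long-header libraries. Trim71, a regulator of messenger RNA, had 86.2 to 189 CPM in short-header and 161 to 225 CPM in long-header libraries, so that all 3 overlapped. The differences of largest size upward were those of Trim39 (1.79), Trim56 (1.60), Trim5 (1.43), Trim33 (1.26) and Trim62 (0.75). Those downward were Trim38 (-2.09), Trim26 (-1.62), Trim41 (-1.502), Trim2 (-1.15) and Trim8 (-0.99). Some of these genes are near the floor, where small counts weigh on the difference. Trim56, Trim5 and Trim2 had means of 1.10, 1.23 and 1.74 CPM, with Trim56 at 0 in 4 libraries and Trim2 in 3. Trim56 and Trim5 had at most 0.146 and 0.765 CPM in long-header libraries and passed the filter on low counts only through short-header ones. In the sire comparisons 0 of the 28 passed by edgeR, with medians of -0.37 for 6% ethanol and -0.01 for 10% ethanol against control, and 0.03 for 10% against 6% ethanol.

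A list of genes of the 2-cell stage or activated by Dux, the mouse counterpart of human DUX4, was set beside the family. Of 34 listed, 30 were in the files and 22 were tested, and Duxf3, which is Dux itself, was at 0 in all 9 libraries. None passed in a sire comparison, and the medians were 0.13 for 6% ethanol, 0.42 for 10% ethanol against control and 0.97 for 10% against 6% ethanol. Between header forms the median difference was 1.29, with 18 of 22 above 0, against 5457 of 12488 over all tested genes. Zscan4d, Zscan4f, Usp17lc and Usp17ld had at most 0.0422, 0, 0.144 and 0.104 CPM in long-header libraries. They passed the filter on low counts only through short-header libraries, which fixed the sign of their difference. The median and the count above 0 include them, so nothing is read from either. The largest differences were those of Usp17lc (4.01), Zfp352 (3.18) and Zscan4d (3.03), which were at 0 in 4, 2 and 4 libraries. Their short-header values ran from 0 to 138, 0 to 201.5 and 0 to 93.8 CPM, so these differences rest on few libraries. The gene above without overlap was 1 of 22, near the 4.80 percent of all genes. Pramel7, that gene, which acts in the ground state of pluripotency, had 1172 to 1942 CPM in short-header libraries and 589 to 1139 CPM in long-header ones. Pramel6 had 467 to 1016 CPM in short-header and 283 to 673 CPM in long-header libraries. Sp110, a nuclear body protein, had 150.03 to 338 CPM in short-header and 86.04 to 235 CPM in long-header libraries. Pramel7, Pramel6 and Sp110 have the highest mean CPM of the list and had counts in every library. Their values do not stand for the listed genes near 0.

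The Obox family, homeobox genes of the oocyte and early embryo, had 8 members listed and 3 tested. Each of the 3 had a higher mean in short-header libraries, as did 5457 of all 12488 tested genes. Only Crxos lay above without overlap, as did 4.80 percent of all tested genes, and Obox6 and Obox8 overlapped. Crxos had 508 to 1132 CPM in short-header libraries and 325 to 478 CPM in long-header ones. Obox6 had 43.7 to 214.7 CPM in short-header and 39.02 to 100.3 CPM in long-header libraries. Obox8 had 2.28 to 17.04 CPM in short-header and 1.98 to 10.2 CPM in long-header libraries. None of the 3 passed in a sire comparison, with medians of 0.06 for 6% and 0.12 for 10% ethanol against control, and 0.14 between the doses.

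Because human TRIM43 acts on pericentrin, 27 centrosome genes were listed, and all 27 passed the filter on low counts. That action is on the protein, and RNA levels do not measure it. None passed in a sire comparison, with medians of 0.11 for 6% and -0.20 for 10% ethanol against control, and -0.29 for 10% against 6%. Their median header-form difference was 0.47, with 17 of 27 above 0, against 5457 of 12488 over all tested genes, and 3 above without overlap, against 4.80 percent. Pcnt, which encodes pericentrin, had 88.04 to 219 CPM in short-header libraries and 11.1 to 52.6 CPM in long-header ones. Nin, encoding the microtubule anchor ninein, had 156 to 536 CPM in short-header libraries and 40.9 to 61.4 CPM in long-header ones. Aurka, a mitotic kinase of the spindle pole, overlapped, at 80.6 to 242 CPM in short-header and 155 to 334 CPM in long-header libraries.

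The pattern most like that of the family sum over the 9 libraries was sought among 10957 tested genes with full symbols. The highest Pearson correlations of log2(CPM + 0.5) were those of Sgk3, a kinase of the phosphoinositide pathway (0.949), Srpk1, a kinase of splicing factors (0.934), Parp8, an ADP-ribosyltransferase (0.932), Nipal1, a magnesium transporter (0.930), and Pprc1, a coactivator of mitochondrial gene expression (0.927). With the mean of each header form subtracted these were 0.851, 0.856, 0.855, 0.855 and 0.824, which ranked 22, 17, 20, 18 and 37 among the compared genes, so the likeness of these 5 rests in part on header form. Sgk3 had 886 to 1323 CPM in short-header libraries and 442 to 803 CPM in long-header ones. Its lowest library was control 2 and its highest was 10% ethanol 3, as for the Trim43 sum. The points share header form and depth, and no test was made.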

How the data were processed

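The deposited values are raw counts per gene, made by the authors with featureCounts against GRCm39 (mm39), per the submitters' processing notes, which also name DESeq2. Aligner settings, annotation and strand are not given in the sources used here. The members, lists and settings were chosen with earlier results of these data known, and the named genes followed a fixed rule: the members, the 5 genes most like their sum, and the list members of highest mean CPM, with the TRIM genes of largest header-form difference.

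Genes were filtered with filterByExpr by group, scaled with TMM and fitted with edgeR's quasi-likelihood test with 3 groups over all 9 libraries. P-values were adjusted by Benjamini-Hochberg over 12488 genes and compared with 0.05. The standard error is the log2 fold change over the root of its F statistic. Lists were described, not tested. Alternatives were RLE scaling, library size alone, a filter of 1 count, a filter of 50 counts in 3 libraries, limma voom with quality weights, DESeq2, fits to the compared groups alone, a term for header form, fits within 1 header form and the omission of each library, and, added after the data were seen, that omission together with the term. Total counts were 6263465 to 27619281 per library, so counting error is small for Trim43a and Trim43b. Sequences come from GENCODE M21 transcripts and RefSeq promoters, both GRCm38, and no coordinates of the counted build are given. The tools were edgeR 4.0.16, DESeq2 1.42.0 and limma 3.58.1 in R 4.3.3.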

Additional observations from a re-analysis of the deposited data

How the results depend on the processing

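No Trim43 gene passed the adjusted threshold under any alternative that was run. Against control each member stayed above 0 except without 10% ethanol 3. With 1 library left out, the log2 fold change for 6% ethanol against control ranged from 0.27 to 1.19 for Trim43a, 0.37 to 1.34 for Trim43b and 1.41 to 3.003 for Trim43c. For 10% ethanol against control it ranged from -0.12 to 1.05, -0.13 to 1.27 and -0.30 to 2.33, and for 10% against 6% ethanol from -0.77 to 0.16, -1.05 to 0.48 and -2.33 to -0.08. The dose difference reversed for Trim43a and Trim43b on library size alone (0.0613 and 0.18), with header form as a term (0.29 and 0.53), in long-header libraries (0.25 and 0.53) and in short-header libraries (0.26 and 0.49), and for Trim43b with the filter of 1 count (0.00919). For Trim43c it reversed with header form as a term (0.69) and in long-header libraries (1.55). The cause was not tested. The difference between header forms, short minus long, ranged from 1.005 to 1.495 for Trim43a, 1.41 to 2.02 for Trim43b and 2.53 to 3.50 for Trim43c with 1 library left out.

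Counts of genes called were 0 by edgeR in each comparison and with 1 library left out. For 6% against control, 10% against control and 10% against 6% ethanol they became 140, 47 and 147 with the filter of 1 count, 31, 10 and 34 by DESeq2, 3, 9 and 4 in long-header libraries, and 48, 2 and 1 in short-header libraries, and no Trim43 gene was among them. A lone library of a group in these last fits takes its spread from the other groups. No paired analysis was possible because the labels number no replicates: 1 to 3 follow accession order within each group and only name the libraries.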

Other observations

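Morula and blastocyst lineage genes and oocyte transcripts were set beside the Trim43 genes by header form. Of 25 lineage genes, 24 were tested, with a median difference of -0.50 (short-header minus long-header) and 6 above 0. Over all tested genes the median was -0.17, with 5457 of 12488 above 0. The list ran from -2.17 for Id2 to 1.82 for Dppa4. The genes named next have the highest mean CPM, with differences of -0.41 (Klf5), -0.02 (Gata6) and 0.03 (Lrp2). Klf5, a transcription factor of the early lineages, had 460.1 to 1032 CPM in short-header libraries and 793 to 978 CPM in long-header ones. Gata6, which marks primitive endoderm, had 536 to 1459 CPM in short-header and 569.8 to 1141 CPM in long-header libraries. Lrp2, an endocytic receptor, had 129 to 1529 CPM in short-header and 228 to 889 CPM in long-header libraries. Of 24 oocyte transcripts, 14 were tested, with a median of -0.62 and 5 above 0. Without overlap, 0 lay above and 2 below (Tle6 and Zbed3), against 4.80 and 4.28 percent of all tested genes. Both had at most 0.877 CPM in short-header libraries. They passed the filter on low counts only through long-header libraries, which fixed the direction of their difference. The oocyte genes named next have the highest mean CPM, with differences above 0 for Dppa3 (0.64), Khdc3 (0.44) and Dazl (0.46). Dppa3, a maternal factor that protects methylation marks, had 1022 to 4013 CPM in short-header libraries and 781 to 1867 CPM in long-header ones. Khdc3, of the subcortical maternal complex, had 316 to 819 CPM in short-header and 249 to 480.2 CPM in long-header libraries. Dazl, a germ cell RNA-binding protein, had 0 to 76.7 CPM in short-header and 2.28 to 30.6 CPM in long-header libraries. None of these genes passed in a sire comparison by edgeR.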
